A study of Danio rerio with 6 samples.

Results

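The transcripts described here come from 6 zebrafish genes for histone variants: *h2afx*, *h2afva*, *h2afvb*, *h2afy*, *h2afy2* and *h3f3a*. They were found by gene symbol among the 21769 genes of the larger deposited table, and each symbol matched 1 gene. The set was selected on the mutant against sibling difference in normalized CPM, which was already known for *h2afx*. The mutant against sibling values of the 6 genes are therefore given as a description, with no test.

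RNA was taken from AB-strain embryos at 36 hours post fertilization (hpf) and sequenced. There were 3 libraries of siblings labelled wild type and 3 libraries of *dhx38* mutants, whose genotype is written dhx38-- for replicate 1 and dhx38-/- for replicates 2 and 3. The product of *dhx38* is an RNA helicase of the spliceosome, and the labels used here do not state the mutation. The tissue is named tail in one label and trunk in another, and whether replicate libraries stem from different clutches is not said, so errors cover the spread between these libraries only.

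DNA in the nucleus is wound around histones. Most histone mRNA is made during S phase from clustered multicopy genes, ends in a stem-loop bound by SLBP, and serves the new chromatin behind replication forks. Many variant histones come from genes outside these clusters and replace the standard forms at chosen places, largely outside replication. Whether this holds for *h2afx* was not examined here. H2A.X, the product of *h2afx*, is phosphorylated next to DNA breaks by the kinases ATM, ATR and DNA-PK and is then bound by MDC1. H2A.Z, made from *h2afva* and *h2afvb*, sits at promoters. MacroH2A, made from *h2afy* and *h2afy2*, carries a large extra domain and is known in mammals from repressed chromatin such as the inactive X chromosome. H3.3, made from *h3f3a* among other genes, is deposited by HIRA and by DAXX with ATRX.

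Values are in normalized CPM, a read count relative to library depth after further scaling of each library by the authors. Estimated depths ran from 32.1 to 37.7 M reads in replicates 1 and 2 of both groups. Replicate 3 was shallower, at 20.05 M in the sibling and 19.5 M in the mutant. *dhx38* (ENSDARG00000100013) stood at 33.8, 33.8 and 27.3 in siblings and at 57.2, 90.4 and 53.1 in mutants. That level does not check the genotype, since the mutation is not stated. Of 6 fast muscle markers 6 were present, with a summed level of 24504 to 25629 in siblings. The libraries also held lens and forebrain transcripts, with *crybb1*, a lens crystallin gene, at 362 to 546 and *foxg1a*, a forebrain transcription factor gene, at 27.4 to 31.4 in siblings. Such transcripts belong to the head and not to tail or trunk. Of 7 tail bud markers 7 were measured, with a summed level of 27.4 to 40.6 in siblings. Single markers ran from *msgn1* at 0.65 to 1.66 up to *hoxc13a* at 8.89 to 16.5 in siblings.

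Of the 6 histone variant genes, 5 had lower means in the mutants and 1, *h2afy*, had a higher mean. The difference was largest for *h2afx* and smallest for *h2afvb*. In 3 genes, *h2afx*, *h2afva* and *h3f3a*, every mutant library stood below every sibling library, which was so for 13.8% of all genes. Within each same-number pair of libraries 5 of the 6 were lower in the mutant, as were 27.0% of all genes. The median log2 fold change of the 6 was -0.35, against -0.01 over all genes. Nothing is read from these shares, because the difference was known when the genes were chosen.

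**Figure D1:**
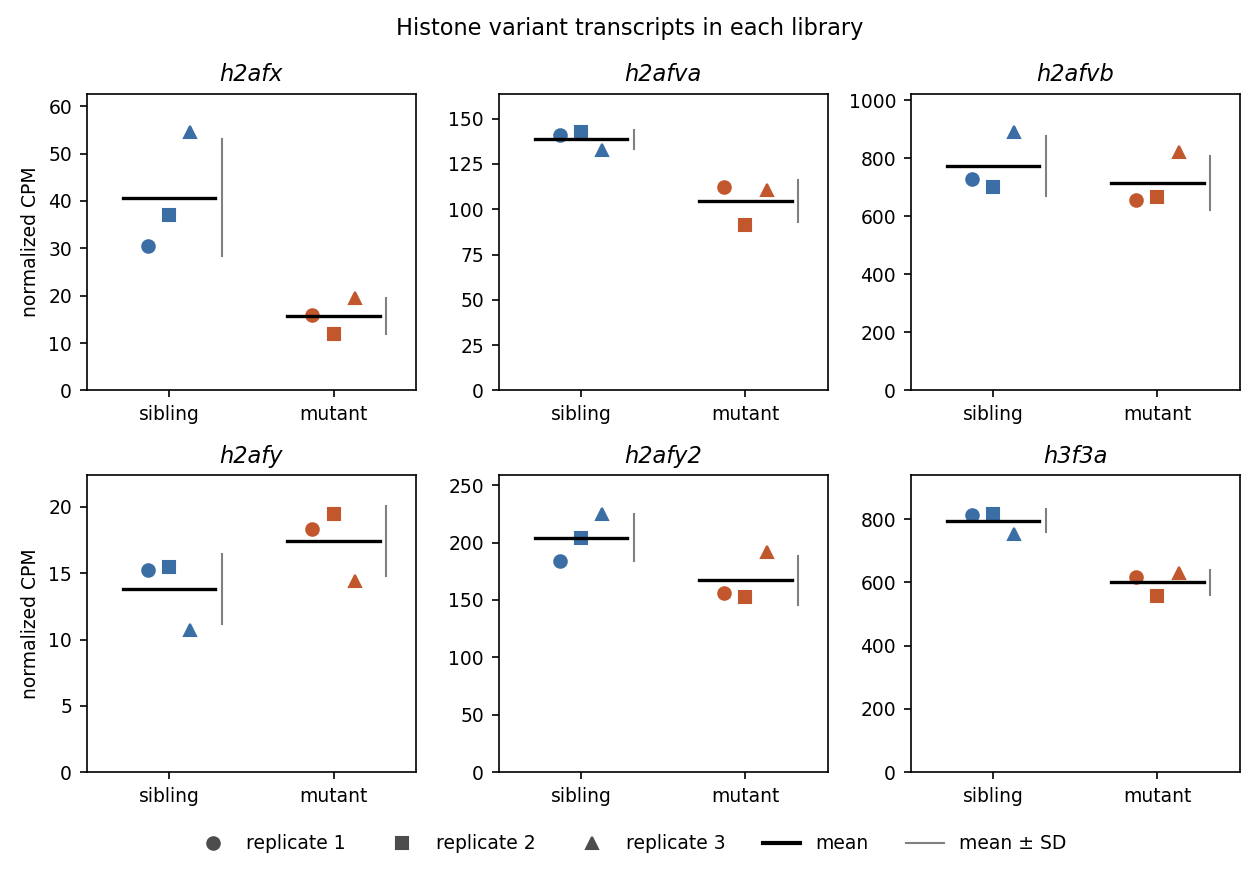
Level of each histone variant transcript in normalized CPM (y axis, from 0) in the 3 sibling and 3 mutant libraries. Marker shape gives the replicate number, the black line the group mean and the grey line the mean ± SD (n = 3 per group). The groups do not overlap for *h2afx*, *h2afva* and *h3f3a*.

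*h2afx* (ENSDARG00000029406, chromosome 5, minus strand in the deposited table, build GRCz11) is the gene the set is named after. Its level was 30.5, 37.1 and 54.5 normalized CPM in sibling replicates 1, 2 and 3. In mutant replicates 1, 2 and 3 it was 15.9, 11.8 and 19.5. The lowest sibling library was thus above the highest mutant library, and replicate 3 was the highest library in both groups. The means were 40.7 ± 12.4 and 15.8 ± 3.84 (SD, n = 3 per group), so that the mutants held 38.7% of the sibling level. An estimated 1050 to 1374 reads lay behind each sibling value and 357 to 545 behind each mutant value.

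On the log2(value + 1) scale the difference of *h2afx* was -1.30 (SE 0.25), and 45 of the 21769 genes had a lower log2 fold change. Nothing is read from this rank, because the difference of *h2afx* was known when it was chosen. Within same-number libraries the mutant held 52.2%, 31.9% and 35.8% of the sibling in pairs 1, 2 and 3. Pair 1 thus differed less than pairs 2 and 3. Leaving out 1 library at a time gave log2 differences of -1.07, without sibling replicate 3, to -1.48, without sibling replicate 1. The shorter deposited table of 956 genes, whose selection by the authors is not explained in the labels, held 0 of the 6 genes.

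In the RefSeq annotation of another zebrafish assembly, GRCz12tu, the span of *h2afx* overlaps that of *c2cd2l*, a gene for a lipid transfer protein. The deposited table gives both genes the minus strand. Reads of overlapping genes may not have been told apart by the authors' counting. *c2cd2l* stood at 7.57, 8.35 and 7.74 in siblings and at 11.2, 12.7 and 9.84 in mutants, the opposite direction to *h2afx*, and did not pass the threshold, a Benjamini-Hochberg adjusted p below 0.05 in a limma fit of log2 values over all genes (log2 fold change 0.45, SE 0.14, limma adjusted p = 0.135). The genes on either side, *hmbsa* of heme synthesis (20.5 ± 3.49 and 24.3 ± 9.005) and *dpagt1* of protein glycosylation (11.1 ± 1.37 and 11.0 ± 1.12), overlapped between the groups (SD, n = 3 per group).

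A paralog of the same variant, *h2afx1* (ENSDARG00000068995, chromosome 10), stood outside the set. Its level was 257, 211 and 239 normalized CPM in sibling replicates 1, 2 and 3 and 168, 135 and 160 in the mutants, again without overlap. It had a log2 fold change of -0.61 (SE 0.15) and was not called (limma adjusted p = 0.0847), except with the replicate number as a block in the fit (limma adjusted p = 0.0192). The ratio of *h2afx* to *h2afx1* within a library does not depend on how libraries were scaled. It was 11.9%, 17.6% and 22.8% in siblings and 9.47%, 8.78% and 12.2% in mutants. The ratios overlapped, since sibling replicate 1 lay below mutant replicate 3. In each same-number pair, the mutant had the lower ratio.

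The next gene to *h2afx1* in the same RefSeq annotation is *hist2h2l*, which the deposited table puts on the opposite strand of chromosome 10. It stood at 39.6, 37.6 and 38.9 in siblings and 27.4, 25.6 and 25.2 in mutants. Its log2 fold change of -0.55 (SE 0.13) was close in size to that of *h2afx1* and likewise passed with the replicate block only (limma adjusted p = 0.0716 without it and 0.0255 with it). On the other side of *h2afx1*, *zpr1*, a zinc finger protein gene, was higher in the mutants, at 32.01 ± 5.23 against 20.6 ± 1.01 (SD, n = 3 per group; limma adjusted p = 0.0964, and 0.0252 with the replicate block).

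The 2 genes for H2A.Z both had lower means in the mutants. *h2afva* (ENSDARG00000068820, chromosome 5) stood at 141, 143 and 133 normalized CPM in sibling replicates 1, 2 and 3 and at 112, 91.0 and 110 in the mutants. The groups were apart, and mutant replicate 2 was the lowest library. The mutants held 75.4% of the sibling mean, with a log2 difference of -0.41 (SE 0.14). *h2afvb* (ENSDARG00000116491, chromosome 10) stood at 729, 700 and 890 in siblings and at 657, 667 and 822 in mutants. These ranges overlapped, and replicate 3 was the highest library of both groups. The mutants held 92.5% of the sibling mean (log2 difference -0.11, SE 0.16), and each mutant library was below the sibling of its number, at 90.01%, 95.4% and 92.3%. The difference of *h2afvb* went to -0.01 without sibling replicate 3. In GRCz12tu the span of *h2afvb* overlaps that of *myo18b*, which was matched to no gene of the deposited table. The ratio of *h2afva* to *h2afvb* was 19.3%, 20.4% and 14.9% in siblings and 17.1%, 13.6% and 13.4% in mutants, which overlapped.

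The 2 macroH2A genes had mean differences of opposite sign, neither without overlap between the groups. *h2afy* (ENSDARG00000099329, chromosome 21) was the member at a higher mean in the mutants, with 15.2, 15.5 and 10.8 normalized CPM in sibling replicates 1, 2 and 3 and 18.3, 19.5 and 14.4 in the mutants. Replicate 3 was the lowest library in both groups, and the groups overlapped. Each mutant library stood above the sibling of its number, at 120%, 126% and 134%. The log2 difference was 0.32 (SE 0.19), and it was 0.16 without sibling replicate 3. In GRCz12tu its span overlaps that of *sec24a*, a vesicle coat gene, which the deposited table also puts on the plus strand of chromosome 21. *sec24a* stood at 112 ± 11.7 in siblings and 135 ± 25.9 in mutants (SD, n = 3 per group; limma adjusted p = 0.440), also higher by mean.

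*h2afy2* (ENSDARG00000087897, chromosome 13) stood at 184, 204 and 225 normalized CPM in siblings and at 156, 153 and 192 in the mutants. Mutant replicate 3 lay above sibling replicate 1, so the groups overlapped. The mutants held 81.8% of the sibling mean (log2 difference -0.29, SE 0.15), and 85.0%, 75.0% and 85.3% within pairs 1, 2 and 3. The ratio of *h2afy* to *h2afy2* was 8.28%, 7.58% and 4.78% in sibling replicates 1, 2 and 3 and 11.7%, 12.7% and 7.52% in the mutants. It was higher in the mutant of every pair, though mutant replicate 3 fell in the sibling range. The ratio of *h2afy2* to *h2afvb* was 25.2%, 29.1% and 25.3% in siblings and 23.8%, 22.9% and 23.4% in mutants, without overlap.

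*h3f3a* (ENSDARG00000020504, chromosome 3) is 1 of 4 measured genes named for H3.3. It stood at 815, 817 and 753 normalized CPM in sibling replicates 1, 2 and 3 and at 616, 556 and 629 in the mutants. The groups were apart, and the mutants held 75.6% of the sibling mean (log2 difference -0.40, SE 0.13). *h3f3c* (chromosome 5) was also lower in each mutant library, at 786, 709 and 787 against 952, 908 and 910, and missed the threshold (log2 fold change -0.28, SE 0.13, limma adjusted p = 0.262). The symbol *h3f3b.1* belongs to 2 genes, and both overlapped between the groups. The one on chromosome 15 stood at 253, 208 and 260 in siblings and 256, 218 and 287 in mutants, and the one on chromosome 24 at 597, 525 and 737 in siblings and 506, 487 and 676 in mutants. The ratio of *h3f3a* to *h3f3c* was 85.6%, 89.97% and 82.7% in siblings and 78.3%, 78.5% and 80.0% in mutants, without overlap. Near-identical coding sequences among H3.3 genes may make the split of reads between them uncertain.

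**Figure D2:**
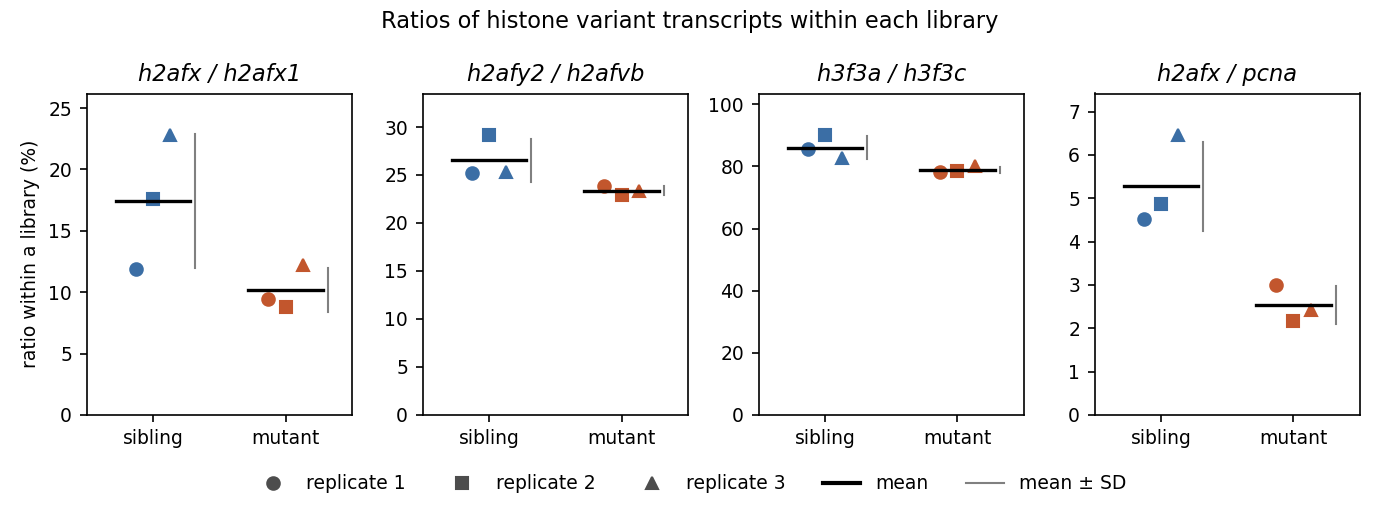
Ratio of the levels of 2 transcripts within each library, in percent (y axis, from 0), for siblings and mutants. Marker shape gives the replicate number, the black line the mean and the grey line the mean ± SD (n = 3 per group). The ratios of *h2afy2* to *h2afvb*, *h3f3a* to *h3f3c* and *h2afx* to *pcna* do not overlap between groups, while those of *h2afx* to *h2afx1* do. The ratios of *h2afva* to *h2afvb* and of *h2afy* to *h2afy2*, given in the text, also overlap and are not drawn. How often ratios of other gene pairs separate is not given. Nothing is read from these ratios, because the difference was known when the genes were chosen.

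For several of these transcripts replicate 3 stood at the same end in both groups. Replicate 3 was the highest library in siblings and in mutants for *h2afx*, *h2afvb* and *h2afy2*, and the lowest in both for *h2afy*. For *h2afva* and *h3f3a* replicate 3 was the lowest sibling library and not the lowest mutant library. Of the 6 genes only *h2afy* kept the whole order of the 3 numbers in both groups, as did 29.5% of all genes. How many of all genes had replicate 3 at the same end is not given. Replicate 3 of *h2afx* was 1.61 times the mean of replicates 1 and 2 in siblings and 1.41 times in mutants. For *h2afy* the same ratios were 0.701 and 0.763.

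The linker histone genes *h1f0* and *h1fx*, whose proteins bind the DNA between nucleosomes, kept the whole order of the replicate numbers in both groups. So did *h2afx1* and both *h3f3b.1* genes, and 29.5% of all genes. *h1fx* stood at 40.6, 25.3 and 62.0 normalized CPM in sibling replicates 1, 2 and 3 and at 22.7, 9.49 and 31.4 in the mutants. *h1f0* stood at 238, 185 and 359 in siblings and at 153, 103 and 251 in the mutants. Both were highest in replicate 3 and lowest in replicate 2 of each group, and the groups overlapped. Both were lower in the mutant of each pair, with log2 fold changes of -1.03 (SE 0.44) for *h1fx* and -0.66 (SE 0.35) for *h1f0*. Neither was called without the replicate block (limma adjusted p = 0.232 and 0.319), and both were called with it (limma adjusted p = 0.00509 and 0.0179).

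**Figure D3:**
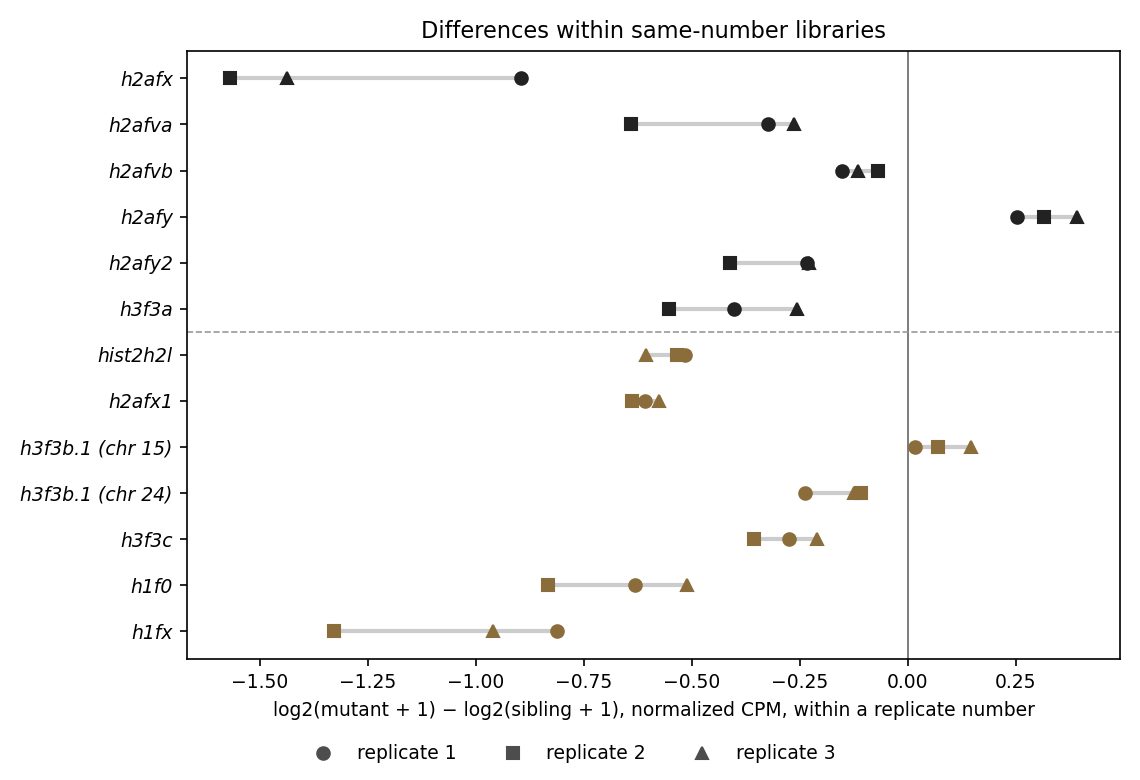
Log2 difference of mutant and sibling within each replicate number (x axis, normalized CPM with 1 added) for the 6 histone variant genes, above the dashed line, and the 7 other histone genes with a group mean of at least 10, below it. Marker shape gives the replicate number. The 3 values of *h2afy* and of *h3f3b.1* on chromosome 15 lie above 0, and those of the other 11 genes lie below 0.

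Among the 18 other genes with a histone symbol, 1 fell in the mutants and 0 rose, while 0.285% of all genes were called lower and 1.41% higher (limma; 1.70% in all). The gene that fell, *hist2h3c*, an H3 gene on chromosome 25, went from 4.69, 4.30 and 7.11 normalized CPM in siblings to 1.31, 1.65 and 2.4 in mutants (log2 fold change -1.18, SE 0.21, limma adjusted p = 0.0403). It passed without mutant replicate 1 (limma adjusted p = 0.0403) or 3 (0.0496), and did not without sibling replicate 1 (0.138), 2 (0.119) or 3 (0.1304) or mutant replicate 2 (0.187). With a pseudocount of 0.1 and no block it did not pass either (limma adjusted p = 0.0730). With the replicate block 5 of the 18 fell and 0 rose, where 6.87% of all genes were called lower and 6.85% higher. These 5 were *hist2h3c*, *h1fx*, *h2afx1*, *h1f0* and *hist2h2l*. Calls with the block depended on the pseudocount. With the block and a pseudocount of 0.1, 1 of the 18 passed, *hist2h3c*. Of the lists that follow, 0 genes of H2A.X signalling, 1 of H2A.Z exchange, 0 histone chaperones, 0 of histone mRNA processing and 0 S phase markers then passed. The median log2 fold change of the 18 was -0.18. The other 10 genes of this group, with *hist1* symbols, had a mean of at most 2.46 in either group, and reads of such multicopy genes may be shared between copies. *hist2h3c* was also low, with means of 5.37 in siblings and 1.79 in mutants, and whether its reads are shared was not examined. *cenpa*, the gene of the centromeric H3 variant, was sought by symbol, was not among the 18 genes found and is not described.

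Kinases and readers of H2A.X were measured with 26 genes of its signalling. By limma 0 passed the threshold, 8 were lower and 0 higher at an unadjusted p under 0.05, where 10.7% of all genes were lower and 10.2% higher, and the list median was -0.17. With the replicate block, which called 13.7% of all genes (6.87% lower), 6 fell and 0 rose. *mdc1*, which binds phosphorylated H2A.X, stood at 31.8, 35.2 and 41.2 normalized CPM in siblings and 22.1, 15.4 and 23.0 in mutants (log2 fold change -0.82, SE 0.19; limma adjusted p = 0.0724, and 0.0135 with the block). *prkdc*, the catalytic subunit of DNA-PK, stood at 26.5, 30.1 and 27.5 in siblings and 22.2, 16.2 and 14.1 in mutants (limma adjusted p = 0.0996, and 0.0298 with the block). The kinase gene *atm* was also lower in each mutant library, at 13.2, 9.82 and 10.7 against 14.7, 18.6 and 16.5, and missed the threshold in both fits (limma adjusted p = 0.126, and 0.0586 with the block).

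The kinase gene *atr* overlapped between the groups, at 24.3 ± 2.79 in siblings and 27.1 ± 2.92 in mutants (SD, n = 3 per group; limma adjusted p = 0.607). The other 4 genes that fell with the block were *nbn*, *mre11a* and *rad50*, which form the complex that senses DNA ends, and *bard1*, the partner of BRCA1, with limma adjusted p of 0.0225, 0.0495, 0.0303 and 0.0177. Their log2 fold changes were -0.77, -0.51, -0.58 and -0.64. Their names were taken up after their values were seen.

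Of 31 genes of the complexes that exchange H2A.Z 1 rose and 0 fell (limma), where 1.41% of all genes were called higher, and the list median was -0.05. The gene was *ruvbl1*, an ATPase of the SRCAP, TIP60 and INO80 complexes. It stood at 88.7, 98.6 and 74.2 normalized CPM in siblings and at 208, 344 and 259 in mutants (log2 fold change 1.602, SE 0.21, limma adjusted p = 0.0177). The lowest mutant library was more than the highest sibling library. Its partner *ruvbl2* stood at 60.1, 59.6 and 57.6 in siblings and 62.9, 66.6 and 61.5 in mutants (log2 fold change 0.10, limma adjusted p = 0.685). The call of *ruvbl1* held without mutant replicate 1 or 3 and was lost without mutant replicate 2 (limma adjusted p = 0.0664) or sibling replicate 1 (0.0856), 2 (0.0695) or 3 (0.0904).

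With the replicate block 3 of the 31 rose and 1 fell, where 6.85% of all genes were called higher and 6.87% lower. *srcap*, the ATPase that places H2A.Z, was higher in each mutant library, at 164, 192 and 145 against 125, 131 and 129 (limma adjusted p = 0.210). *ep400*, of the TIP60 complex, overlapped between the groups (101 ± 4.98 and 115 ± 30.2, SD, n = 3 per group). Of the genes for the acetyltransferase TIP60, *kat5a* was at 19.6 ± 1.04 and 25.8 ± 4.20 and *kat5b* at 26.3 ± 1.92 and 17.9 ± 5.17 in siblings and mutants (SD, n = 3 per group), with limma adjusted p of 0.233 and 0.189. *anp32e*, a chaperone that removes H2A.Z, was lower in each mutant library, at 225, 178 and 240 against 285, 278 and 318 (limma adjusted p = 0.159, and 0.0519 with the block).

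Of 32 histone chaperone genes 0 passed by limma (2 higher and 5 lower at an unadjusted p under 0.05, against 10.2% and 10.7% of all genes), with a list median of -0.10. The replicate block gave 1 that rose and 2 that fell of the 32, where 6.85% of all genes were called higher and 6.87% lower. *hira* stood at 70.5 ± 1.83 in siblings and 59.8 ± 6.06 in mutants, *daxx* at 53.5 ± 0.855 and 59.8 ± 5.18, and *atrx* at 283 ± 12.4 and 214 ± 36.05 (SD, n = 3 per group). In none of these 3 did the groups overlap, as in 13.8% (lower) and 13.3% (higher) of all genes, and limma adjusted p was 0.362, 0.554 and 0.189. The H3 and H4 chaperone genes *asf1ba* (44.5 ± 3.84 and 41.9 ± 6.64) and *asf1bb* (58.8 ± 1.94 and 46.8 ± 4.08) had limma adjusted p of 0.783 and 0.219. The FACT complex handles H2A and H2B, and its genes *supt16h* (607 ± 146 and 489 ± 67.4), *ssrp1a* (171 ± 9.80 and 177 ± 23.0) and *ssrp1b* (4.05 ± 0.190 and 3.75 ± 0.684) each overlapped between groups.

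Of 23 genes that make and process histone mRNA 2 rose and 0 fell (limma), where 1.41% of all genes were called higher, with a list median of 0.25. Both, *snrpe* and *snrpf*, encode Sm proteins, which are shared between the U7 snRNP of histone mRNA and the spliceosomal snRNPs. *snrpe* stood at 61.4, 57.3 and 61.2 normalized CPM in siblings and 98.7, 163 and 183 in mutants (log2 fold change 1.24, SE 0.23, limma adjusted p = 0.0417). *snrpf* stood at 76.0, 81.1 and 72.0 in siblings and 125, 234 and 200 in mutants (log2 fold change 1.23, SE 0.23, limma adjusted p = 0.0450). Without mutant replicate 1 both passed, while without any other 1 library neither did, with limma adjusted p up to 0.200 for *snrpe* and 0.172 for *snrpf*, both without mutant replicate 2.

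With the replicate block 6 of the 23 rose and 1 fell, where 6.85% of all genes were called higher and 6.87% lower. The 6 were the Sm protein genes *snrpe*, *snrpf* and *snrpg*, and *cstf3*, *eri1* and *npat*. Of these, *snrpg*, *cstf3* and *eri1* were named after their values were seen. *npat*, which drives transcription of the S phase histone genes, stood at 32.1, 34.8 and 41.9 in siblings and 44.9, 53.9 and 52.5 in mutants (limma adjusted p = 0.148 without the block and 0.0480 with it). *lsm11*, a protein of the U7 snRNP itself, was the 1 that fell, at 6.99 ± 1.22 in siblings and 4.55 ± 0.476 in mutants (SD, n = 3 per group; limma adjusted p = 0.0321 with the block, named after its values were seen). *slbp*, the stem-loop binding protein gene, overlapped between the groups (97.9 ± 13.8 and 93.2 ± 27.9, SD, n = 3 per group). *casp8ap2*, of the bodies where histone genes are transcribed, stood at 23.1 ± 3.31 and 28.7 ± 4.29 (limma adjusted p = 0.350).

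**Figure D4:**
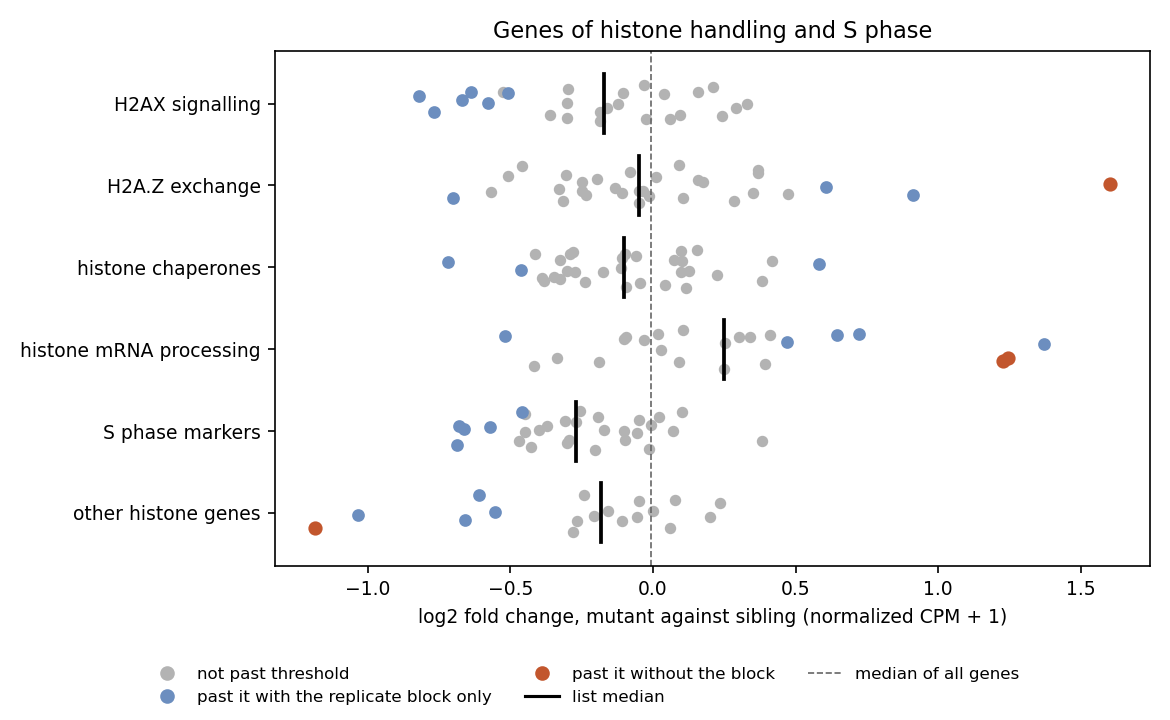
Log2 fold change of mutant against sibling (x axis, normalized CPM with 1 added) for each measured gene of 6 groups; vertical scatter within a row has no meaning. Red points passed the threshold without the replicate block, blue points with it only, and grey points in neither fit. The black bars are the list medians, from -0.27 for S phase markers to 0.25 for histone mRNA processing, and the dashed line is the median of all genes.

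Levels of S phase and cell type markers are set beside those of *h2afx*. In bulk tissue, fewer cells of a type and less RNA per cell cannot be told apart. Of 29 S phase markers 25 had a negative log2 fold change, with a median of -0.27, while 50.8% of all genes were negative. *orc1* (0.38), *cdc6* (0.10), *ccne2* (0.07) and *cdc45* (0.02) were above 0. The summed level of the 29 was 5259 to 5700 normalized CPM in siblings and 4139 to 5010 in mutants. By limma 0 of the 29 passed (0 higher and 8 lower at an unadjusted p under 0.05, against 10.2% and 10.7% of all genes), and 5 fell with the replicate block, where 6.87% of all genes were called lower. These 5 were *dut* (log2 fold change -0.69), *gins2* (-0.68), *rrm2* (-0.66), *rfc5* (-0.57) and *mcm7* (-0.46). *pcna*, the replication clamp gene, stood at 674, 764 and 845 in siblings and at 530, 547 and 803 in mutants. The ratio of *h2afx* to *pcna* was 4.52%, 4.86% and 6.45% in siblings and 3.004%, 2.16% and 2.43% in mutants, without overlap. Nothing is read from this ratio, because the difference of *h2afx* was known when it was chosen.

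Of the cell type markers 0 passed by limma, where 1.70% of all genes were called. Over all genes, 50.8% had a negative log2 fold change. Of 8 neural progenitor markers 8 had a negative log2 fold change, with a median of -0.62, and their summed level was 1270 to 1324 in siblings and 632 to 915 in mutants. Of 6 fast muscle markers 6 were also negative, with a median of -0.58 and sums of 24504 to 25629 and 17012 to 21206. The median was also negative for 8 eye and lens markers (-0.50, 7 negative, sums of 758 to 1070 in siblings and 336 to 891 in mutants), 4 forebrain markers (-0.31, 4 negative, 81.5 to 92.1 and 63.1 to 77.7), 6 erythrocyte markers (-0.43, 4 negative, 3030 to 7775 and 2056 to 4143) and 7 tail bud markers (-0.12, 4 negative, 27.4 to 40.6 and 22.1 to 34.7). It was positive for 5 notochord markers (0.28, 0 negative, 178 to 559 and 276 to 588). The erythrocyte sum was 7775, 4149 and 3030 in sibling replicates 1, 2 and 3 and 4143, 2056 and 3800 in the mutants. In pair 3 the mutant thus had the higher erythrocyte sum. The notochord sum was 265, 178 and 559 in siblings and 308, 276 and 588 in mutants, highest in replicate 3 of both groups. The 5 measured germ line markers, of which *ddx4* and *nanos3* are defining ones, summed to 3.57 to 6.91 in siblings and 5.75 to 7.65 in mutants (median 0.15, 1 negative). In the fit with the block 6 neural progenitor, 4 eye and lens, 3 fast muscle, 1 forebrain, 1 tail bud and 1 erythrocyte marker fell and 0 rose. That fit called 6.87% of all genes lower and 6.85% higher. The part of these cell types in the histone variant levels was not tested.

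The genes most like each variant were taken by Pearson's r of log2 values over the 6 libraries, among 13051 genes with a mean of at least 5. These are descriptions without a test, since all points share the same libraries and the genotype. For *h2afx* they were *dna2*, a nuclease and helicase gene, *calub* and *orc5*, a subunit of the origin recognition complex, with r of 0.99 for each. *orc5* stood at 15.0, 16.3 and 18.5 in siblings and 11.5, 9.77 and 13.1 in mutants, and *dna2* at 30.8, 33.4 and 35.0 and 26.1, 24.6 and 28.03. *calub* stood at 52.0, 54.5 and 58.0 in siblings and 46.9, 43.5 and 49.3 in mutants. Each of these genes kept the order of the libraries seen in *h2afx* over a smaller range. A total of 788 genes reached an r of 0.9 with *h2afx*, so such likeness was common.

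For *h2afva* the nearest were *aldh7a1*, *mdh1aa* and *ercc1*, and for *h3f3a* they were *clptm1l*, *wdr24* and *mylz3*, with r from 0.9952 to 0.9975. *h2afva* and *h3f3a* were also like each other (r = 0.98). An r of 0.9 was reached by 1088 genes with *h2afva* and by 863 with *h3f3a*, so this likeness was common too. For *h2afy2* the nearest were *stxbp6*, *hmgn3*, a nucleosome-binding protein gene, and *cops7a*, and for *h2afvb* *parvb*, *tsku* and *zhx2a*, which carry the high replicate 3. The nearest genes to *h2afy* were *akr1a1a*, *gata6* and *itpr3* (r of 0.99). *gata6*, an endoderm and heart transcription factor gene, stood at 22.8, 22.0 and 14.5 in siblings and 28.1, 32.6 and 22.3 in mutants. *h2afy* ran opposite to *h2afx* (r = -0.87), *h2afvb* (-0.93) and *h2afy2* (-0.93) over the same 6 libraries. How many of all genes ran opposite to this degree is not given.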

How the data were processed

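The values the authors deposited are a normalized signal for each gene, which the headers call normalized CPM, rounded to 2 decimals. Build GRCz11 and the tools edgeR, fastp, featureCounts and STAR are listed in the submitters' processing notes without versions or roles. How libraries were scaled, whether strand was used and how genes were filtered is not stated there. The test used limma 3.58.1 (R 4.3.3) on log2(value + 1) for mutant against sibling, over all 21769 genes, at a Benjamini-Hochberg adjusted p of 0.05. A fold change on this scale understates the change of low genes. The fit was tested on simulated data drawn without any link between same-number libraries, so that test does not cover the pairing described below.

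Groups and replicate numbers came from the sample titles. Same-number libraries deviated together, with r of 0.45, 0.43 and 0.57 for numbers 1, 2 and 3. This was taken as pairing by number, and the block stayed an alternative. The SE values given above come from the fit without the block, so they include spread between replicate numbers. With the block the SE was 0.16 for *h2afx*, 0.14 for *h2afva* and 0.13 for *h2afvb*, *h2afy*, *h2afy2* and *h3f3a*. No 2 libraries of a group agreed within sampling noise, with a mean chi-square per gene of 20.8 to 52.1. Depth was estimated from the smallest step between low values in each library, and intervals of counting error are not given.

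The histone variant genes and all gene lists were chosen with earlier results of these data known. Lists were written from textbook knowledge, and other histone genes were found by symbol. Genes named were the 6 variants, the 3 genes most like each by r (placeholder symbols passed over), the called genes of each list, and 22 genes fixed by name. Other histone genes, neighbouring or overlapping genes, *dhx38*, *ruvbl2* and single S phase and cell type markers were named outside this rule and are not marked. Marks of later choice are given only for genes of H2A.X signalling and of histone mRNA processing. A symbol with several gene IDs in a list stands for its ID with the highest mean. Of the gene IDs 20433 matched the Ensembl name table. Transcript lengths were not used here. Ratios of genes and sums over genes are therefore compared between libraries only, and their size does not rank genes by abundance.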

Additional observations from a re-analysis of the deposited data

How the results depend on the processing

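The log2 differences of the 6 histone variant genes kept their sign under the 13 alternatives run and moved by less than the spread between libraries. They ranged from -1.48 to -1.07 for *h2afx*, -0.46 to -0.31 for *h2afva*, -0.22 to -0.01 for *h2afvb*, 0.16 to 0.44 for *h2afy*, -0.39 to -0.22 for *h2afy2* and -0.44 to -0.35 for *h3f3a*. Calls were less stable, and why was not tested. With the replicate block 2986 genes passed in place of 370, among them 6 of H2A.X signalling, 4 of H2A.Z exchange, 3 chaperones, 7 of histone mRNA processing, 5 S phase markers and 5 other histone genes. With a pseudocount of 0.1, 205 genes passed, with 0 of histone mRNA processing and 0 other histone genes. With that and the block 169 passed, with 0 of H2A.X signalling, 1 of H2A.Z exchange, 0 chaperones, 0 of histone mRNA processing, 0 S phase markers and 1 other histone gene. These, *ruvbl1* and *hist2h3c*, had also passed in the main fit, so every call that the block added to these lists was lost. With a variance trend 2 other histone genes passed. Leaving out single libraries gave 31 to 1731 genes, of which 0 to 3 were of H2A.X signalling, 0 to 3 of H2A.Z exchange, 0 to 5 of histone mRNA processing and 0 to 2 other histone genes. The upper end was without mutant replicate 1 in each case.

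The variance trend, median centring, scaling to equal sums and the pseudocount of 0.1 with the block were chosen after seeing the data. The count test planned as an alternative was not run, and the depths and read numbers given are estimates.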
